A study of Homo sapiens with 8 samples.

Results

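The 43 genes described here encode proteins of mitosis and the mitotic spindle. They were chosen by name from known roles in cell division, and each was read from the probe set with the highest mean signal among those that the platform annotation assigns to that gene alone. All 43 were measured, out of 19777 genes on the arrays. They were placed in 4 classes by role: 12 regulators of entry and chromosome proteins, 11 kinetochore and checkpoint genes, 11 motors and spindle genes, and 9 genes of mitotic exit and cytokinesis. The cells were MDA-MB-231, a human line from a metastatic breast cancer, and all had been infected with a retroviral hairpin RNA against GFP, which serves as a control hairpin. After 24 h without serum, one group was given TGFβ for 3 h in serum-free medium (4 arrays, replicate letters A to D) and the other was left untreated (4 arrays, letters A to D). The labels call the arrays of a group biological replicates. The dose in the labels is 5 µg/ml, while ng/ml amounts are common for this cytokine, which leaves the unit open to doubt. The question of the series is which genes TGFβ and mutant p53 control together; cells depleted of p53 were not analysed here.

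Mitotic genes are transcribed in a wave that peaks as cells enter mitosis. In resting cells and early in the cycle the DREAM complex represses them through a promoter element called the CHR, and later MYBL2 and FOXM1 activate them, often together with NF-Y at CCAAT boxes. CDK1 with its cyclins starts mitosis, kinetochores tie chromosomes to the spindle, motor proteins shape the spindle, and the anaphase-promoting complex then destroys cyclin B and securin so that the cell can divide. TGFβ is known as an inhibitor of proliferation in epithelial cells, a response that many carcinoma lines have partly lost. A bulk array cannot tell fewer dividing cells from less RNA per dividing cell, and this applies to every level below.

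The arrays matched their labels where this could be checked. Signals are log2 RMA values, and array medians were 4.62 to 4.66. SMAD7, JUNB and PMEPA1, direct targets of TGFβ signalling, rose after treatment (log2 fold changes of 1.81, 1.64 and 2.24, with limma adjusted p of 0.0039, 0.000168 and 0.0418), and SKIL, the other target measured, had 1.41 (adjusted p = 0.157; 0.00205 with the replicate letter as a block). The mesenchymal markers VIM, CD44, AXL, MSN, CAV1 and PLAUR had mean signals between percentiles 91.5 and 99.95 of all genes. Of the markers of luminal breast cells, PGR, FOXA1, CDH1 and ESR1 lay at percentiles 14.2, 9.18, 33.3 and 49.9, while ERBB2 and GATA3 lay at 65.8 and 69.5. CDH1 rose after TGFβ (0.90, adjusted p = 0.00579). Of markers of other cells, ALB was at percentile 5.13, PTPRC at 29.6, CD3D at 54 and PECAM1 at 68.6, and RMA values carry no detection calls that would separate such signals from background. With the letter as a block PECAM1, an endothelial marker, fell (-0.43, adjusted p = 0.0155). The signal of the 3′ end of ACTB exceeded that of its 5′ end by 1.68 (log2) on the treated array of letter A, against 0.63 to 0.89 on the other 7 arrays. For GAPDH the excess was 0.537 on that array, against 0.062 to 0.143 on the other 7. The 43 mitotic genes had mean signals at or above percentile 59.8.

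To show the sequences that these genes carry in front of their starts, RefSeq promoters (GRCh38.p14, 250 bases before to 50 after the start, the first entry listed for a gene) were searched on both strands for the CHR core TTTGAA and its variant TTCGAA, the CCAAT box and the E2F site cores TTTGGCGC and TTTCGCGC. Entries were matched for 36 of the 43 genes by gene ID. AURKA, FOXM1, BUB3, TTK, TPX2, UBE2C and BIRC5 had none. Either CHR form was present in 27 of the 36 promoters (75%), against 16.6% of 27305 promoters of all genes. CCAAT was present in 27 (75%), against 35.7% of all promoters, and 16 promoters held 2 or more (44.4%, against 11.3%). A CHR form together with CCAAT was found in 22 (61.1%, against 6.58%). In 22 promoters a CHR form began within 50 bases of the start (61.1%, against 5.05%). The E2F cores were rare, with 1 promoter for each, NUSAP1 for TTTGGCGC and CDK1 for TTTCGCGC, against 0.66% and 0.55% of all promoters. Matches are letters in a window and say nothing about binding.

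The promoters below are those of the gene in each class, among those with an entry, whose signal differed most on the arrays of letter B (CDC25C, SPC25, KIF2C and CDCA3), followed by the 3 genes that passed the test of treatment when the letter was taken into account (PLK4, KIF14 and ASPM, added after their values were seen). Each is 280 bases long, from 250 before to 30 after the start, read 5′ to 3′ in the direction of the gene, with matches to the 5 motifs in capitals.
CDC25C (chr5:138338326-138338605, minus strand): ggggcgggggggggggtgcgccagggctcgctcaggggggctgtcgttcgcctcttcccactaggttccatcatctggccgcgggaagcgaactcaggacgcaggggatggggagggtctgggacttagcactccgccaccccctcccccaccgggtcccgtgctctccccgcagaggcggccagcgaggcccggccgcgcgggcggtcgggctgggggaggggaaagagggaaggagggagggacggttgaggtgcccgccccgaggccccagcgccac
SPC25 (chr2:168890401-168890680, minus strand): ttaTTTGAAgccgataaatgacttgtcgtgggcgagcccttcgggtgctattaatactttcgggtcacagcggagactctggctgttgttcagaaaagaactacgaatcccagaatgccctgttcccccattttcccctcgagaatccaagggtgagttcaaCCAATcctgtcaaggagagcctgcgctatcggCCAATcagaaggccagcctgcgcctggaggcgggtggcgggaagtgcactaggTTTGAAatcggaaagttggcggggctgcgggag
KIF2C (chr1:44739587-44739866, plus strand): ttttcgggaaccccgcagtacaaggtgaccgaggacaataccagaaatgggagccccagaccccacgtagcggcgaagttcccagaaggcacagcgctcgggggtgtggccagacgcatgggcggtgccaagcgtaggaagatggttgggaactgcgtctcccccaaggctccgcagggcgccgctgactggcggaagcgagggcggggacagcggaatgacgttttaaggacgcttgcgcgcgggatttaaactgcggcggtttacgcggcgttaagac
CDCA3 (chr12:6851257-6851536, minus strand): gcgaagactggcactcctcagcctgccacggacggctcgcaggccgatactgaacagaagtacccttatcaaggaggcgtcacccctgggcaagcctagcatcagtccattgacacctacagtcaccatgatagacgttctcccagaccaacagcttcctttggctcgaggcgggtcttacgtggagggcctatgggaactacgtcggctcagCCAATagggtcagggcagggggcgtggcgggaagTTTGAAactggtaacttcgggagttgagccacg
PLK4 (chr4:127880643-127880922, plus strand): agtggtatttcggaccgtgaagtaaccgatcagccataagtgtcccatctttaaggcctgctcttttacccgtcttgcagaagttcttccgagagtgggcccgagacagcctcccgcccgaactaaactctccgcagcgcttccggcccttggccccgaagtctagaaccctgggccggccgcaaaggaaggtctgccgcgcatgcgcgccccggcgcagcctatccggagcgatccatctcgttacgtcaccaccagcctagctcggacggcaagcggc
KIF14 (chr1:200620722-200621001, minus strand): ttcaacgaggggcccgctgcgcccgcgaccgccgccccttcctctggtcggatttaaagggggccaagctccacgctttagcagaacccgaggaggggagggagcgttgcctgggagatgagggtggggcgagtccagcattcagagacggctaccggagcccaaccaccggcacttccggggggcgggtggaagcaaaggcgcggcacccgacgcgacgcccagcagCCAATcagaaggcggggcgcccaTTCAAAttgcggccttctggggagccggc
ASPM (chr1:197146640-197146919, minus strand): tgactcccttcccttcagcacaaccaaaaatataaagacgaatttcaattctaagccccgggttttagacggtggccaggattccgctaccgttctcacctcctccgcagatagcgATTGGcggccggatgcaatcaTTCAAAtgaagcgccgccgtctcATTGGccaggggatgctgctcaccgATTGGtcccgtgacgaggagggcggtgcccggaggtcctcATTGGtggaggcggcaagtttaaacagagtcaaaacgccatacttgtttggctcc
SPC25 and CDCA3, which lie far apart in the genome and act at different steps, both have TTTGAA beginning at position -3, counted from the start. SPC25 has CCAAT at -88 and -56 and a further TTTGAA at -247, and CDCA3 has CCAAT at -37. KIF14 has the reverse complement of TTTGAA just behind its start and CCAAT at -22. ASPM has 4 CCAAT boxes, all reversed, and a reversed TTTGAA at -113. The windows of CDC25C and KIF2C hold none of the 5 motifs. That of PLK4 as printed holds none either, its reversed TTTGAA beginning at base 39 behind the start. Only the first listed start of a gene and these 5 motifs were searched. A CHR at another start or in another form would be missed. The median difference of letter B from the other letters, described below, was -0.65 (log2) for the 27 genes with a CHR form and -0.97 for the 9 with neither. The limit of the search applies to all 9, which include CDC25C and KIF2C. These medians were not tested against each other, and letter B was chosen with its values known.

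After 3 h of TGFβ the mitotic genes had slightly lower signals as a group, and none passed the test. Of the 43 genes, 41 had a negative log2 fold change, treated minus untreated, and the median was -0.22, whereas 47.2% of all genes had a negative one and their median was 0.01. Among the members 0 rose and 0 fell in limma at an adjusted p of 0.05, where 0.576% of all genes passed, and the adjusted p of the members lay between 0.172 and 0.998. At an unadjusted p of 0.05, 6 of the 43 passed, against 8.14% of all genes. The replicate letter was also taken as a block, since arrays of 1 letter shared deviations, though treated D matched another letter's untreated array better. In that fit 3 members fell and 0 rose, where 3.56% of all genes passed and 2.18% were called lower. Of the members 23 had an unadjusted p under 0.05 in it, against 15.3% of all genes. Which members passed in the block fit depended on the probe sets. With the mean of each gene's probe sets there were 5, PLK4, MKI67, KIF14, ANLN and ECT2, where 613 of 19777 genes were called in either direction. With probe sets open to several transcripts removed there was 1, ANLN, among the 34 members left, where 547 of 17100 genes were called. KIF14 then had an adjusted p of 0.0515. Both of these choices with the block were added after the data were seen. Within the letters, 25 of the 43 were lower in the treated array in all 4 pairs, against 10.7% of all genes, 10 in 3 pairs, 6 in 2, 1 in 1 pair and 1 in 0. The groups did not overlap for 2 genes, KIF14 and ASPM, against 2.21% of all genes. Without treated B, which leaves untreated B in the comparison, the median was -0.02 and 22 genes were negative. Without untreated B the median was -0.41, and without both arrays of letter B it was -0.21 with 41 negative.

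**Figure D1:**
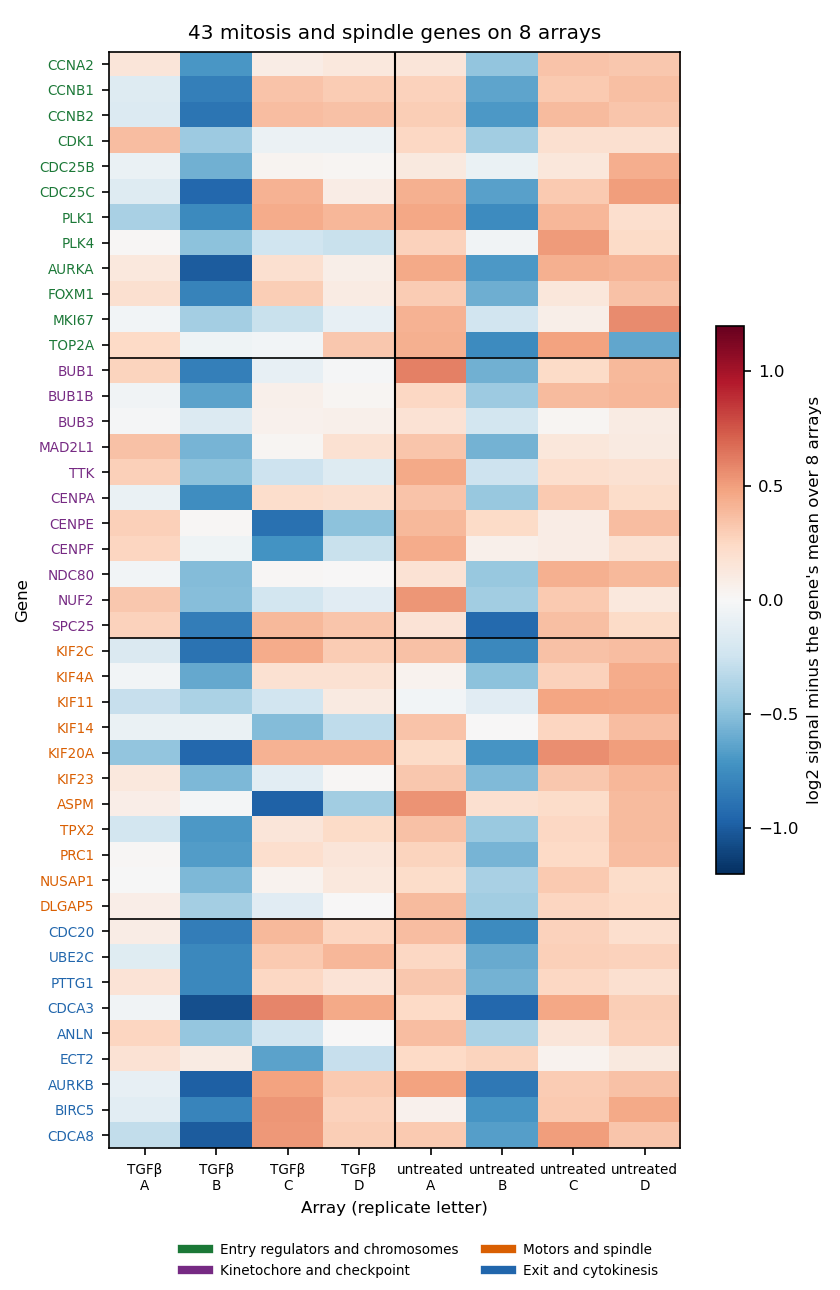
Signals of the 43 genes (rows, coloured by class) on the 4 TGFβ arrays and the 4 untreated arrays (columns), as log2 signal minus the mean of the gene over the 8 arrays. The B array is the lowest of its group in both groups for 38 of the 43 genes, and the rows of ASPM, CENPE, CENPF and ECT2 are darkest in the TGFβ array of letter C.

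The regulators of entry had a median log2 fold change of -0.16, 11 of 12 were negative, and 5 were lower in all 4 pairs. PLK4, the kinase that starts centriole duplication, had signals of 6.66, 6.16, 6.42 and 6.39 in treated cells (A to D), against 6.93, 6.61, 7.16 and 6.88 in untreated cells. The treated array was the lower one in every letter, while treated A lay just above untreated B. Its log2 fold change was -0.49 ± 0.14 SE (limma adjusted p = 0.226), and with the letter as a block it fell (± 0.10 SE, adjusted p = 0.0198). All 3 of its probe sets were negative, and with the block the adjusted p was 0.0129 for their mean and 0.12 with those open to several transcripts removed. MKI67, whose protein coats mitotic chromosomes and marks proliferating cells, had 8.48, 8.11, 8.25 and 8.41 in treated cells, against 8.93, 8.28, 8.58 and 9.08 in untreated cells. It was lower in 4 of 4 pairs and in all 4 probe sets, with -0.41 ± 0.17 SE (adjusted p = 0.533; 0.0507 with the block). CDC25B, a phosphatase that activates CDK1, was lower in 4 of 4 pairs as well (-0.30 ± 0.15 SE, adjusted p = 0.703; 0.129 with the block).

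CDK1, its cyclins, CDC25C, AURKA and FOXM1 did not pass in either fit. CDK1, the kinase that drives entry, had 10.41, 9.61, 9.98 and 9.97 in treated cells, against 10.30, 9.63, 10.24 and 10.24 in untreated cells. Its treated array was the higher one in letter A and the lower one in the other letters, with a mean difference of -0.10 ± 0.19 SE (adjusted p = 0.96). Its partner CCNB1 had 10.30, 9.63, 10.80 and 10.76 in treated cells, against 10.72, 9.82, 10.77 and 10.82 in untreated cells, a difference of -0.16 ± 0.28 SE (adjusted p = 0.958) that came mainly from letters A and B. CCNB2 (-0.16), CCNA2 (-0.17) and CDC25C (-0.30), the other cyclins and a further CDK1 phosphatase, did not pass either. With the mean of the probe sets CDK1 had -0.18, CCNA2 -0.30 and CCNB2 0.0037. For CCNA2 this mean had an adjusted p of 0.0542 in limma with the block. The further CCNB2 probe sets were dim, with mean signals of 4.94 and 3.17 in untreated cells, against 9.55 for the chosen one. In its chosen probe set CCNA2 was lower in 4 of 4 pairs, with -0.002 in letter A. AURKA, a kinase of the spindle poles, had 10.13, 9.003, 10.19 and 10.07 in treated cells, against 10.45, 9.31, 10.43 and 10.40 in untreated cells. The AURKA pairs differed by nearly the same amount, and its fold change was -0.30 ± 0.31 SE (adjusted p = 0.9), or ± 0.08 SE with the block (adjusted p = 0.0794). FOXM1, the transcription factor of the mitotic wave, had 8.61, 7.62, 8.71 and 8.51 in treated cells, against 8.72, 7.83, 8.55 and 8.76 in untreated cells (-0.10 ± 0.26 SE, adjusted p = 0.973).

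The PLK1 difference came from letter A, and that of TOP2A, in its chosen probe set, from untreated B and D. PLK1, a kinase with roles from entry to cytokinesis, had 7.24, 6.86, 8.07 and 8.02 in treated cells, against 8.09, 6.87, 8.03 and 7.83 in untreated cells. Letter A differed by -0.85 and the other 3 letters by -0.01 to 0.19, and the fold change was -0.16 ± 0.32 SE (adjusted p = 0.965). TOP2A, the topoisomerase that disentangles sister chromosomes, was the member with the highest log2 fold change, 0.24 ± 0.27 SE (adjusted p = 0.911). Its chosen probe set had 10.00, 9.72, 9.74 and 10.09 in treated cells, against 10.19, 9.01, 10.25 and 9.14 in untreated cells, with untreated B and D far below untreated A and C. Another probe set of TOP2A gave 9.67, 9.16, 9.34 and 9.68 in treated cells, against 9.80, 9.31, 9.82 and 9.92 in untreated cells, a difference of -0.25 that had the same sign in all 4 letters. The direction for TOP2A thus differed between its probe sets. Of the 23 members with more than 1 probe set, 19 had all of them in 1 direction.

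Among the kinetochore genes the median log2 fold change was -0.27, 10 of 11 were negative and 8 were lower in all 4 pairs. CENPE, the motor that carries chromosomes along microtubules to the metaphase plate, had 6.99, 6.72, 5.80 and 6.21 in treated cells, against 7.09, 6.93, 6.79 and 7.07 in untreated cells. Treated C and D were the lowest of the 8 CENPE arrays, and treated A overlapped the untreated group. The difference was -0.54 ± 0.22 SE (adjusted p = 0.527; 0.079 with the block). CENPF, a large protein of the outer kinetochore, also had treated C and D lowest, with -0.39 ± 0.19 SE (adjusted p = 0.655; 0.117 with the block), and its pairs differed by -0.81 in letter C and -0.45 in letter D. Its other probe sets gave -0.17 and -0.0165, and the mean of the 3 was -0.19. These others were dimmer, with mean signals of 5.65 and 2.91 in untreated cells, against 9.02 for the chosen one. BUB1, a kinase of the spindle checkpoint, had 8.34, 7.26, 7.98 and 8.06 in treated cells, against 8.68, 7.50, 8.31 and 8.46 in untreated cells. In this probe set it was lower by a similar amount in each letter (-0.33 ± 0.27 SE, adjusted p = 0.861; 0.0595 with the block). All 5 BUB1 probe sets were negative, at -0.04 to -0.57. The -0.57 came mostly from letter A, with 6.02 in treated cells, against 7.71 in untreated cells. The dimmest BUB1 probe sets had mean signals of 4.70, 2.74 and 2.58 in untreated cells. The other checkpoint genes were BUB1B (-0.30) and the kinase TTK (-0.30), both lower in 4 of 4 pairs, BUB3 (-0.04) and MAD2L1 (-0.0035). The chosen probe set of MAD2L1 differed from its other 2, which gave -0.30 and -0.34, and the mean of the 3 was -0.22. NDC80 and NUF2, subunits of the complex that grips microtubules, had -0.27 each and were lower in 4 of 4 pairs. SPC25, a subunit of the same complex, had 0.09 and was the one member that was higher in the treated array of every letter. CENPA, the histone variant that marks the centromere, had -0.21.

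The motors and spindle genes had a median of -0.26, all 11 were negative and 9 were lower in all 4 pairs. ASPM, which focuses spindle poles and is the gene most often affected in inherited small brain size, had 8.62, 8.52, 7.56 and 8.12 in treated cells, against 9.07, 8.73, 8.75 and 8.91 in untreated cells. Every treated ASPM value was below every untreated one, with treated C the lowest by far. ASPM had the most negative log2 fold change of the members, -0.66 ± 0.205 SE (adjusted p = 0.296), and with the block it fell (± 0.14 SE, adjusted p = 0.0286). This rested on 1 of its 3 probe sets, the brightest, with a mean signal of 8.87 in untreated cells. The others were dimmer, with 5.87 and 4.20 in untreated cells, and gave differences of -0.0023 and -0.19. The mean of the 3 gave -0.28 (adjusted p = 0.459 with the block). Without the chosen one ASPM was at -0.0022 (adjusted p = 0.995 with the block). KIF14, a kinesin of cytokinesis, had 8.30, 8.30, 7.86 and 8.08 in treated cells, against 8.72, 8.39, 8.64 and 8.75 in untreated cells. The groups did not overlap, though treated A and B lay just below untreated B. The fold change was -0.49 ± 0.13 SE (adjusted p = 0.172), and with the block KIF14 fell (± 0.12 SE, adjusted p = 0.0463). Leaving out both arrays of letter C, or both of letter D, left 0 members called in the block fit, and leaving out letter B left KIF14 and ASPM. Without letter A there were 7, namely PLK4, CENPE, CENPF, KIF11, KIF14, ASPM and ECT2. Calls over all 19777 genes moved as well. There were 705 with all letters, 1304 without A, 288 without B, 321 without C and 356 without D.

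Other motors had smaller or less even differences. KIF11, which pushes the spindle poles apart, had -0.39 ± 0.16 SE (adjusted p = 0.556; 0.0658 with the block). KIF20A, a kinesin of the central spindle, had 8.41, 7.94, 9.30 and 9.30 in treated cells, against 9.11, 8.18, 9.44 and 9.38 in untreated cells, so that its -0.29 ± 0.35 SE (adjusted p = 0.918) was mostly from letter A. The centralspindlin motor KIF23 had -0.26, the microtubule depolymerase KIF2C -0.15 and the chromosome motor KIF4A -0.14. TPX2, which activates AURKA on the spindle, had -0.27, the microtubule bundler PRC1 -0.16, and NUSAP1 and DLGAP5, which stabilise spindle microtubules, -0.19 and -0.23. None of these passed in either fit.

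**Figure D2:**
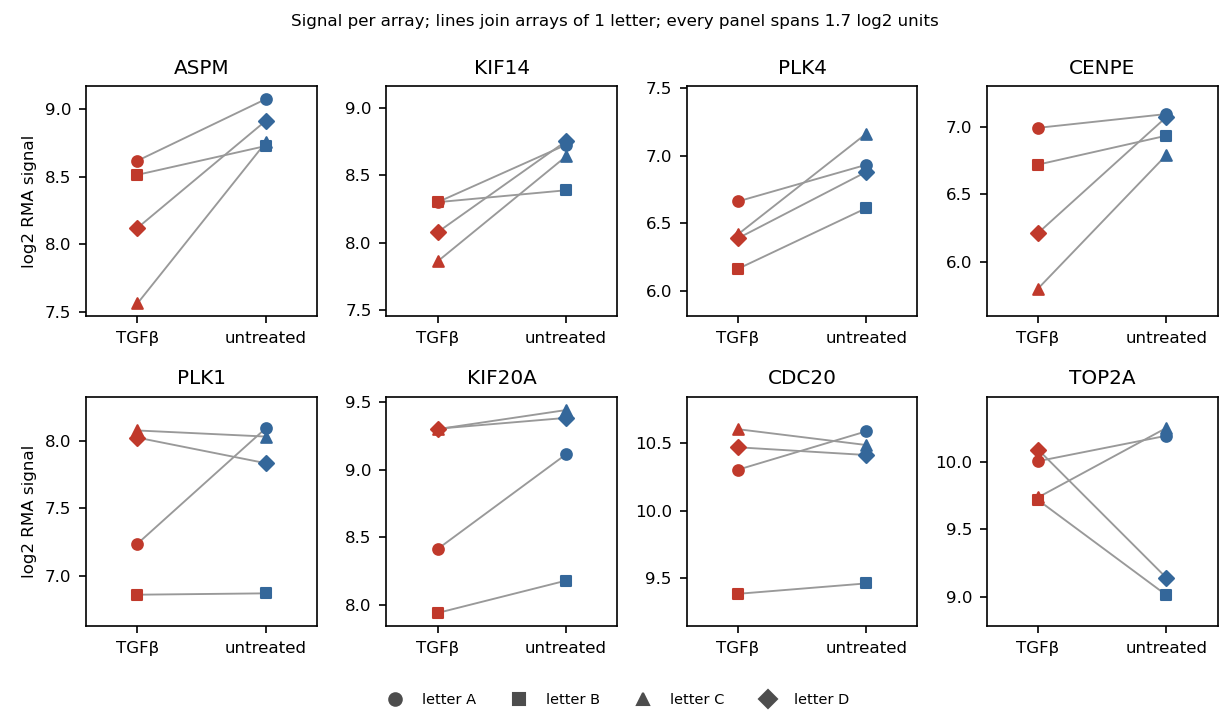
Log2 RMA signal of 8 genes on TGFβ arrays (red) and untreated arrays (blue), with a line joining the arrays of 1 letter. ASPM and KIF14 have no overlap between groups, the lowest PLK1 difference is in letter A, CDC20 differs little, and TOP2A is higher on TGFβ arrays in letters B and D only.

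The genes of mitotic exit differed least between the groups. The class median was -0.11, all 9 were negative but 3 were lower in all 4 pairs, and adjusted p lay between 0.693 and 0.994. ECT2, the activator of RhoA at the cleavage furrow, had 9.50, 9.43, 8.69 and 9.05 in treated cells, against 9.57, 9.60, 9.37 and 9.45 in untreated cells. Treated C and D of ECT2 were well below the other 6 arrays, and the difference was -0.33 ± 0.17 SE (adjusted p = 0.693; 0.156 with the block). ANLN, the scaffold of the contractile ring, had 10.17, 9.45, 9.68 and 9.91 in treated cells, against 10.29, 9.54, 10.06 and 10.20 in untreated cells, with -0.22 ± 0.19 SE (adjusted p = 0.866; 0.266 with the block). Other probe sets gave more negative values for both: with the mean of the probe sets ECT2 had -0.51 and ANLN -0.38, and both fell in the block fit. In the further ECT2 probe sets treated A was the lowest array, at 5.998 and 3.596, against 7.146 and 5.154 on untreated A. The further ANLN probe set also differed most in letter A (8.735 in treated cells, against 9.457 in untreated cells). CDC20, the activator of the anaphase-promoting complex, had -0.05 ± 0.30 SE, and its ubiquitin-conjugating partner UBE2C had -0.10. Securin, encoded by PTTG1, had -0.10, and CDCA3 -0.03. AURKB, CDCA8 and BIRC5, subunits of the chromosomal passenger complex, had -0.14, -0.24 and -0.06.

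Each letter had a negative median, and the letters differed in the size of single genes' differences, which has no test here. The median difference over the 43 genes was -0.26 in letter A, -0.17 in B, -0.14 in C and -0.24 in D, against 0.02, -0.03, 0.04 and 0.00 over all genes, and 40, 38, 30 and 35 of the 43 were lower in the treated array. In letter A 7 genes were lower by at least 0.5 (log2), where 2.55% of all genes were, and these were PLK1 (-0.85), KIF20A (-0.70), CDCA8 (-0.61), CDC25C (-0.58), AURKB (-0.58), TPX2 (-0.57) and KIF2C (-0.52). In letter B 0 were (2.36% of all genes). In letter C 9 were (5.1% of all genes), namely ASPM (-1.19), CENPE (-0.99), CENPF (-0.81), KIF14 (-0.78), PLK4 (-0.74), KIF11 (-0.70), ECT2 (-0.69), NUF2 (-0.54) and TOP2A (-0.51). In letter D 4 were (3.74% of all genes), CENPE (-0.86), ASPM (-0.79), KIF14 (-0.67) and MKI67 (-0.66). None of the 7 genes of letter A was among those of C or D, though ASPM (-0.46), MKI67 (-0.45) and KIF14 (-0.42) lay just short of 0.5 in letter A.

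The exit class in particular had its median difference at -0.28 in letter A and -0.13 in B, but 0.03 in C and -0.03 in D, while the kinetochore class had -0.33 in C and -0.34 in D. Across the 43 genes the differences of letters C and D correlated with Pearson r = 0.56 (Spearman rho 0.66), those of A and C with -0.20 (-0.24), and those of A and D with -0.07 (-0.08). Those of B and D correlated with 0.60, but with a rho of 0.34, and TOP2A was far above the others in both. These are correlations across genes, which are not independent replicates. Treated A was the array with the largest excess of 3′ over 5′ signal of ACTB and GAPDH given above. The part of this in the differences of letter A was not tested.

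**Figure D3:**
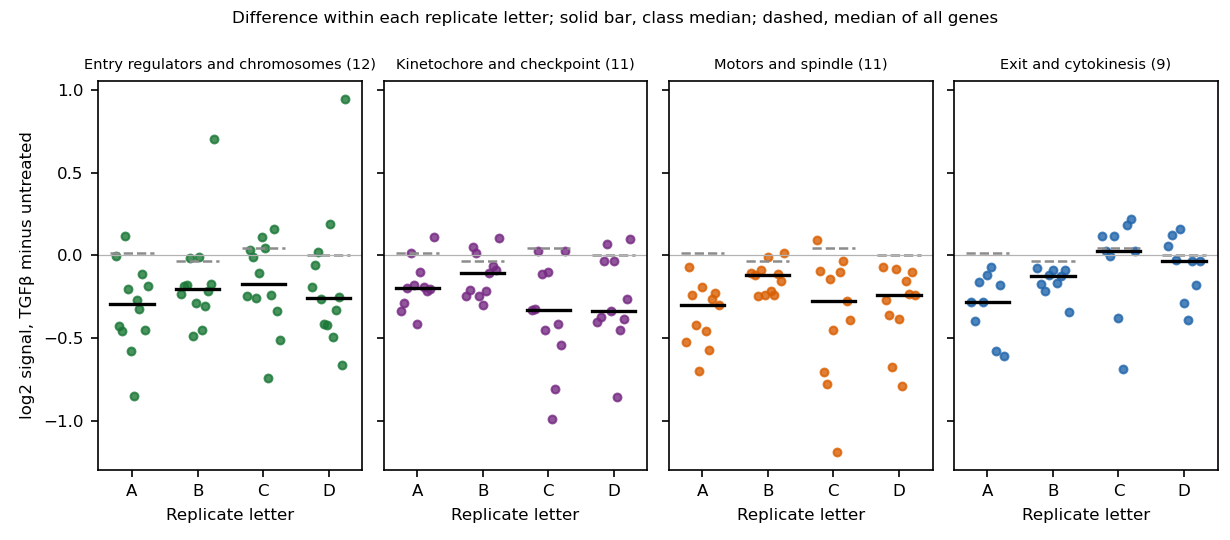
Log2 signal of TGFβ minus untreated within each replicate letter, 1 point for each gene, in 4 panels by class. Solid bars are class medians and dashed bars the median of all genes; the exit class is near 0 in letters C and D, and the lowest points are in letters C and D among the kinetochore and motor genes.

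On both B arrays, with or without TGFβ, the mitotic genes had lower signals than on arrays A, C and D. These values are a description without a test, since the letter was chosen with its values known. The mean signal of the 43 genes was 8.30 on treated B, against 8.91 to 8.98 on treated A, C and D, and 8.44 on untreated B, against 9.18 to 9.20 on untreated A, C and D. In 38 of the 43 genes the B array was the lowest in both groups, where 19.6% of all genes had B lowest in both. The median of B minus the other letters was -0.75 (log2), or 1.69-fold lower, and it was -0.74 within the treated and -0.78 within the untreated group. Over all genes this median was -0.05. The labels do not say what arrays of 1 letter share. Other lists also differed on letter B. For the 4 measured TGFβ targets the median of B minus the others was 0.58 (0.29 within the treated and 0.87 within the untreated group). For the 6 mesenchymal markers it was 0.20, against -0.05 over all genes.

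The genes furthest below the others on letter B came from all 4 classes. CDCA3 was 2.51-fold lower, at 7.68 on treated B, against 8.69 to 9.32 on the other treated arrays, and 7.80 on untreated B, against 8.97 to 9.20 on the other untreated arrays. AURKB was 2.33-fold lower (-1.22), SPC25 2.26-fold (-1.17), AURKA 2.18-fold (-1.12), CDCA8 2.16-fold (-1.11), KIF2C 2.15-fold (-1.10) and KIF20A 2.14-fold (-1.10). In all, 12 of the 43 were at least 2-fold lower on letter B, against 0.147% of all genes, the others being CDC25C, CDC20, CCNB2, PLK1 and BIRC5. MKI67 (-0.43), CDC25B (-0.44), PLK4 (-0.35), KIF11 (-0.35) and BUB3 (-0.26) differed less.

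For 5 genes letter B was not the lowest array in the treated group. ECT2 was higher by 0.24 on B, CENPE by 0.17, ASPM by 0.11 and CENPF by 0.01, and KIF14 was lower by 0.05. Within the untreated group alone these differences were 0.13 for ECT2, -0.05 for CENPE, -0.19 for ASPM, -0.18 for CENPF and -0.32 for KIF14. Within the treated group they were 0.35, 0.38, 0.41, 0.20 and 0.22, and treated C and D, which enter these means, had the lowest signals of these genes. Untreated B was still the lowest untreated array for ASPM, CENPF and KIF14. Of the 23 members with more than 1 probe set, 17 had all of them in 1 letter B direction. For ASPM 1 of 3 probe sets and for CENPF 1 of 3 had the direction of the chosen one, the remaining ones being lower on B.

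**Figure D4:**
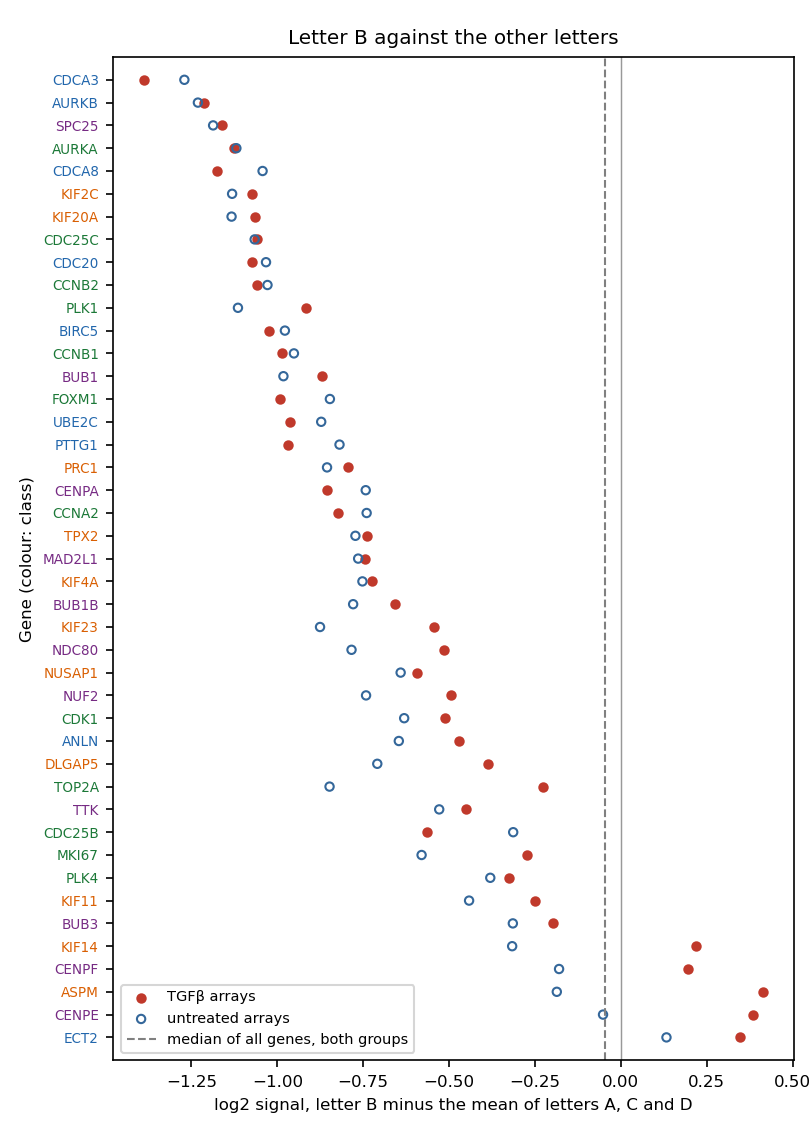
Log2 signal of letter B minus the mean of letters A, C and D for each of the 43 genes, within the TGFβ arrays (filled red) and within the untreated arrays (open blue). The points run from -1.39 for CDCA3 to 0.41 for ASPM, both on TGFβ arrays, and the dashed line is the median of all genes at -0.05.

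Other genes of mitosis showed smaller differences of the same sign. Of 77 measured genes for kinases, centromere proteins, motors, condensin, cohesin, the anaphase-promoting complex and cytokinesis, 65 had a negative log2 fold change. Of all genes 47.2% did. The median of the 77 was -0.14, and 0 passed. ANAPC1 and CIT named no measured gene and were not analysed here. In the fit without the block the smallest p values belonged to CKAP5, a microtubule polymerase (-0.42 ± 0.11 SE, adjusted p = 0.161; 0.0475 with the block), SGO2, a protector of centromeric cohesion (-0.55 ± 0.14 SE, adjusted p = 0.188; 0.0496), and KIF18A, a motor that dampens chromosome movement (-0.46 ± 0.12 SE, adjusted p = 0.194; 0.0663). With the block 6 of the 77 fell, CKAP5, SGO2, HJURP, FAM83D, CDCA2 and DEPDC1, where 2.18% of all genes were called lower. On letter B the median of the 77 was -0.47, and 50 of 77 had B lowest in both groups, against 19.6% of all genes. In 12 genes of the DREAM and MYB-MuvB complexes the median log2 fold change was -0.08 and 0 passed, with LIN52 the lowest p (-0.43 ± 0.18 SE, adjusted p = 0.532; 0.0494 with the block), followed by LIN54 (-0.29) and RBBP4 (-0.37).

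Genes of DNA replication, which precede mitosis in the cycle, also had a low level on letter B. Of 25 genes such as MCM proteins and PCNA 0 passed in either fit. The log2 fold change was negative for 22, against 47.2% of all genes. Its median was -0.10, with CDT1 (-0.34), MCM10 (-0.31) and GMNN (-0.22) at the smallest p. The median difference was 0.01 in letter A, -0.21 in B, -0.17 in C and -0.20 in D. Their median on letter B was -0.54, and B was lowest in both groups for 20 of 25, against 19.6% of all genes. Inhibitors of cyclin-dependent kinases, which act upstream of DREAM, included members that passed on both sides. CDKN1A, which encodes p21, rose to 9.70, 10.15, 10.31 and 10.15 in treated cells, against 8.68, 9.15, 8.99 and 8.98 in untreated cells (1.13 ± 0.14 SE, adjusted p = 0.0062). CDKN1B, which encodes p27, fell to 8.51, 8.52, 8.59 and 8.70 in treated cells, against 9.26, 9.18, 9.35 and 9.33 in untreated cells (-0.70 ± 0.09 SE, adjusted p = 0.00617). CDKN1C had -0.42 and did not pass. Over these 5 measured inhibitors, of 6 listed, the median of letter B minus the others was -0.11, and B was lowest in both groups for 1.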

How the data were processed

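The authors deposited log2 values for 8 arrays; the submitters' processing notes name RMA. Its version, and which arrays it normalized together, are not stated in those sources, and the log2 base was inferred from the values. Of 54675 probe sets 62 were controls; 41091 named 1 gene in GEO's platform annotation of 2016, giving 19777 genes by Entrez identifier, each read from its highest-mean probe set. RMA gives no detection calls. Treated and untreated arrays were set against each other in limma 3.58.1 under R 4.3.3 (lmFit, eBayes, two-sided), with Benjamini-Hochberg adjustment over all genes and a threshold of 0.05. The fit was tested on simulated data. Same-letter arrays deviated together from their group means (correlations of 0.49, 0.69, 0.34 and 0.30 for A to D). The replicate letter as a block is therefore given beside results it changes. Treated D correlated better with an untreated array of another letter than with untreated D. The letters come from the labels, which do not say whether arrays of 1 letter are paired. Their use as pairs rests on these correlations. The labels call the arrays of a group biological replicates. P-values cover the spread among these 8 arrays. Motifs were searched in RefSeq promoters of GRCh38.p14, and figures drawn with matplotlib 3.10.9 in Python 3.11.15. All 43 members are named; signals per array are given for 2 genes of each class by smallest p in the block fit and for a fixed set of well-known genes, with a few added later, and 3 genes by smallest p without the block are named for each other list. The members and lists were chosen with earlier results of these data known. No samples were left out of the comparison.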

Additional observations from a re-analysis of the deposited data

Results flagged for a closer look

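In groups of 4 arrays, an array was taken to stand apart where its gap to the nearest other array, as a share of the range of the group, exceeded the 95% critical value of Dixon's test. Letter B was the lowest array and stood apart in this way for 25 of 86 gene and group combinations of the members (29.1%), against 1.09% of all combinations over all genes. Chance sets some array apart, in either direction, in about 1 in 20 groups. Mitotic genes vary together and letter B was chosen with its values known, so these counts are a description and no test. In treated cells the share of the range was 0.939 for CCNA2, 0.901 for AURKA, 0.860 for BUB1B, 0.908 for NDC80, 0.906 for SPC25 and 0.915 for PTTG1. In untreated cells it was 0.908 for CCNB1, 0.924 for CCNB2, 0.908 for CDK1, 0.834 for CDC25C, 0.960 for AURKA, 0.853 for CENPA, 0.847 for SPC25 and 0.983 for KIF2C. Further untreated values were 0.918 for KIF23, 0.842 for TPX2, 0.851 for PRC1, 0.868 for NUSAP1, 0.830 for DLGAP5, 0.844 for CDC20, 0.959 for UBE2C, 0.854 for PTTG1, 0.841 for CDCA3, 0.866 for AURKB and 0.842 for CDCA8. For mean levels it was 0.906 over all 43 genes and 0.842 over the entry regulators in treated cells. In untreated cells it was 0.968 over all 43 genes, 0.940 over the entry regulators, 0.835 over the kinetochore genes, 0.866 over the motors and 0.980 over the exit genes.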

How the results depend on the processing

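Leaving out single arrays, or both arrays of a letter with the replicate block kept, gave 46 to 1304 called genes, in place of 114, and 0 to 7 called members, in place of 0; the 7 were in the block fit without letter A. With the replicate block and all letters, 705 genes and 3 members were called, and without the block and without both arrays of letter B, 74 genes and 0 members; this alternative and the next 2 were chosen after seeing the data. With the block, averaged probe sets gave 613 of 19777 genes and 5 of 43 members. Removing probe sets open to several transcripts gave 547 of 17100 genes and 1 of 34 members. The member median lay between -0.41 without untreated replicate B and -0.018 without treated replicate B. Single log2 fold changes that did not pass crossed 0 in these fits. They ranged over -0.35 to 0.037 for CCNA2, -0.40 to 0.086 for CCNB1, -0.41 to 0.11 for CCNB2, -0.26 to 0.023 for CDK1, -0.44 to 0.075 for PLK1, -0.32 to 0.14 for FOXM1 and -0.12 to 0.014 for BUB3. Others ranged over -0.19 to 0.18 for MAD2L1, -0.40 to 0.001 for CENPA, -0.21 to 0.38 for SPC25, -0.44 to 0.12 for KIF2C, -0.33 to 0.042 for KIF4A, -0.37 to 0.039 for PRC1 and -0.30 to 0.22 for CDC20. The remaining ones were -0.32 to 0.14 for UBE2C, -0.31 to 0.14 for PTTG1, -0.35 to 0.32 for CDCA3, -0.45 to 0.16 for AURKB, -0.30 to 0.20 for BIRC5 and -0.50 to 0.055 for CDCA8. The sign also turned for MAD2L1 with quantile normalization again (0.0198), CCNB2 with the mean of its probe sets (0.0037), and TOP2A (-0.25) and BUB3 (0.019) with the latter probe sets removed, with or without the block; those fits held 34 members, and letter B lay -0.69 from the other letters in them, in place of -0.75. The cause was not tested. Without the block no member passed with a trended and robust prior, the upper 60% of signals, arrays centred on their medians, renewed quantile normalization or averaged probe sets. Precision is limited by 8 arrays, and RMA understates differences of dim probe sets.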
